A study of Oryctolagus cuniculus with 9 samples.

Results

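Toll-like receptors, the NOD receptors and their shared adaptor were measured in rabbit (Oryctolagus cuniculus) vocal fold tissue. The genes were chosen by name as a receptor family, TLR1, TLR2, TLR3, TLR4, TLR5, TLR8, NOD1, NOD2 and MYD88. Their choice, and that of the gene lists below, was made with earlier results of these data known. Counts set beside shares of all genes are therefore descriptions. Of these 9 genes, 8 had a row among the 20525 genes of the deposited table, and TLR8 was not analysed here. Polyadenylated RNA was sequenced from 3 libraries of injured folds given a hydrogel called SOT (SOT folds), 3 libraries of injured folds left without treatment (untreated folds) and 3 libraries of normal folds without injury. Both injured groups were taken 1 week after injury. The series title describes the hydrogel as antioxidant and adhesive, and the labels give no genotype, strain, age or sex. Vocal cord histiocytes are given as the cell type in the labels, whereas the tissue label is vocal fold. Markers of epithelium, muscle, fibroblasts and endothelium were all present, so the libraries were read as whole tissue. Nothing in the labels says that the replicates came from separate animals, so the p-values refer to the spread of these libraries, and that spread may be technical.

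Toll-like receptors are membrane proteins that recognise molecules of microbes and of damaged tissue. Most of them signal through MYD88 and the IRAK kinases to NF-kappaB, which switches on cytokine genes. TLR3 is the receptor that uses another adaptor, TICAM1, in place of MYD88. NOD1 and NOD2 sense fragments of bacterial cell wall inside the cell and signal through the kinase RIPK2. Epithelium, fibroblasts and endothelium carry some of these receptors, and macrophages and neutrophils carry most of them.

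Total counts were between 44755718 and 50338111 per library, and 17344 genes passed a filter on low counts, among them all 8 receptor genes with a row. Their counts were between 285 and 11831 per library, so none was near the detection limit. Levels are normalised counts scaled to library size (CPM), and a gene is described as having risen or fallen where the adjusted p of edgeR's quasi-likelihood test, adjusted over all 17344 genes, was under 0.05. Injured libraries also differed from normal ones in the levels of cell type markers. Summed macrophage markers were 1325 to 1864 TPM (a share of the library scaled by transcript length) in SOT folds, 2577 to 3169 TPM in untreated folds and 402 to 591 TPM in normal folds. Summed neutrophil markers were 7017 to 15384 TPM in SOT folds, 15836 to 21743 TPM in untreated folds and 2152 to 7914 TPM in normal folds. Most of this sum came from S100A8, S100A9 and S100A12 in every library, so it cannot be read as neutrophil content alone. CSF3R, a receptor on the same list, had 333, 55.2 and 20.3 TPM in SOT folds and 252, 513 and 450 TPM in untreated folds. In normal folds it had 4.46, 12.7 and 10.3 TPM. Against normal folds, 17.7% of all tested genes rose and 15.1% fell in untreated folds, and 9.01% rose in SOT folds. Of 13 macrophage markers 11 rose in untreated folds and 10 rose in SOT folds against normal folds. Of 9 neutrophil markers 8 rose in untreated folds and 5 in SOT folds. Those 5 became 0 without untreated replicate 3 or normal replicate 1 or 2, 2 without normal replicate 3, and 3 without SOT replicate 1 or untreated replicate 1 or 2. Summed fibroblast markers were 8896 to 20198 TPM in SOT folds, 18112 to 19025 TPM in untreated folds and 5745 to 7109 TPM in normal folds. Most of this sum in untreated folds came from the collagen genes COL1A1, COL1A2 and COL3A1. PDGFRA, a receptor on the same list, had 76.3, 84.9 and 78.0 TPM in untreated folds and 63.2, 61.9 and 60.5 TPM in normal folds. Summed endothelial markers were 293 to 650 TPM in SOT folds, 571 to 635 TPM in untreated folds and 193 to 293 TPM in normal folds. Of 8 endothelial markers 4 rose in untreated folds, and of 8 fibroblast markers 4 rose and 2 fell. Summed skeletal muscle markers were 1648 to 7209 TPM in SOT folds, 621 to 5192 TPM in untreated folds and 14942 to 20581 TPM in normal folds. In bulk tissue, fewer cells of a type and less RNA per cell cannot be told apart. The part of cell content in the receptor changes was not tested.

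The table's coordinates follow the build OryCun2.0. TLR1 lies on chromosome 2 at 28214495 to 28224110 on the minus strand, between 2 relatives on the same strand. TLR10 ends 8987 bases below it and TLR6 starts 21128 bases above it, with no other listed gene between them. TLR3 lies on the same chromosome at 63507464 to 63542169 (plus strand), TLR2 on chromosome 15 at 9907319 to 9921223 (plus strand) and TLR5 on chromosome 16 at 49977290 to 49980870 (plus strand). NOD1 lies on chromosome 10 at 14822801 to 14870612 (minus strand) and was listed with 7 transcripts. TLR4 (9773027 to 9786208, minus strand), NOD2 (108842 to 149376, minus strand, 5 transcripts) and MYD88 (73917 to 77718, plus strand) lie on unplaced scaffolds. TLR1, TLR6 and TLR10 are similar in sequence and may share reads, so their values are uncertain to that extent.

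TLR1 and TLR2 form a pair that recognises bacterial lipoproteins at the cell surface. TLR1 had 18.5, 22.1 and 20.6 CPM in SOT folds, 29.3, 49.6 and 37.8 CPM in untreated folds, and 6.57, 7.12 and 7.25 CPM in normal folds. The 3 groups did not overlap, and SOT folds lay between the other two. TLR1 rose in untreated folds against normal folds (log2 fold change 2.48, SE 0.20, adjusted p = 0.000282) and in SOT folds (1.55, SE 0.19, adjusted p = 0.00417). SOT folds had a log2 value of -0.93 (SE 0.19) relative to untreated folds, which did not pass after adjustment over all genes (adjusted p = 0.139). DESeq2 called this difference (adjusted p = 0.00233), and no other alternative did.

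TLR2 had 40.7, 48.2 and 71.7 CPM in SOT folds, 52.6, 68.6 and 62.7 CPM in untreated folds, and 24.5, 23.4 and 22.7 CPM in normal folds. Every injured library lay above every normal library, while SOT and untreated folds overlapped, with SOT replicate 3 the highest of all. TLR2 rose in untreated folds (1.38 on the log2 scale, SE 0.21, adjusted p = 0.00237) and in SOT folds (1.19, SE 0.20, adjusted p = 0.0099) against normal folds. Against untreated folds the value in SOT folds was -0.20 (95% interval -0.66 to 0.26). TLR6, which can replace TLR1 as the partner of TLR2, had 13.1 ± 3.43 CPM in SOT folds, 16.3 ± 2.82 CPM in untreated folds and 7.54 ± 0.738 CPM in normal folds (SD, n = 3 each). It rose in untreated folds by 1.12 on the log2 scale (adjusted p = 0.00625).

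TLR4, the receptor for bacterial lipopolysaccharide, had the highest log2 fold change of the 8 genes in untreated against normal folds, a ranking that was not tested. It had 156, 72.8 and 43.8 CPM in SOT folds, 159, 251 and 221 CPM in untreated folds, and 19.4, 29.3 and 24.2 CPM in normal folds. SOT replicate 1 was close to untreated replicate 1, whereas SOT replicate 3 was closer to the normal libraries, so the SOT folds had a wide spread although they did not overlap with either other group. TLR4 rose in untreated folds against normal folds (log2 fold change 3.11, SE 0.45, adjusted p = 0.00219), an 8.66-fold difference. Its level in SOT folds was 3.73-fold that in normal folds (SE 0.43 on the log2 scale, adjusted p = 0.0222). That difference did not pass without normal replicate 1, 2 or 3 (adjusted p = 0.0821, 0.056 and 0.0574) and with only the 2 groups in the fit (0.0555). Relative to untreated folds, the log2 value in SOT folds was -1.21 (95% interval -2.17 to -0.25, adjusted p = 0.299), and without SOT replicate 1 it was -1.82 (adjusted p = 0.0352).

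The partners of TLR4 moved with it. CD14, which hands lipopolysaccharide to TLR4, had 163, 94.4 and 67.7 CPM in SOT folds, 295, 366 and 371 CPM in untreated folds, and 18.9, 32.2 and 21.5 CPM in normal folds. LY96, the subunit of TLR4 that binds lipopolysaccharide, had 12.4, 7.05 and 5.80 CPM in SOT folds, 16.6, 20.4 and 21.1 CPM in untreated folds, and 2.58, 3.72 and 2.80 CPM in normal folds. SOT replicate 1 was the highest and SOT replicate 3 the lowest SOT library for TLR4 and for both partners. In untreated folds against normal folds CD14 rose by 3.83 and LY96 by 2.67 on the log2 scale (adjusted p = 0.000503 and 0.000967). Between SOT and untreated folds neither passed (CD14 -1.67, adjusted p = 0.137; LY96 -1.20, adjusted p = 0.187), whereas both passed without SOT replicate 1 (adjusted p = 0.021 and 0.0238) and, with all libraries, by DESeq2 (0.00036 and 0.0101). LBP, the plasma protein that delivers lipopolysaccharide to CD14, had too few counts to be tested.

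**Figure D1:**
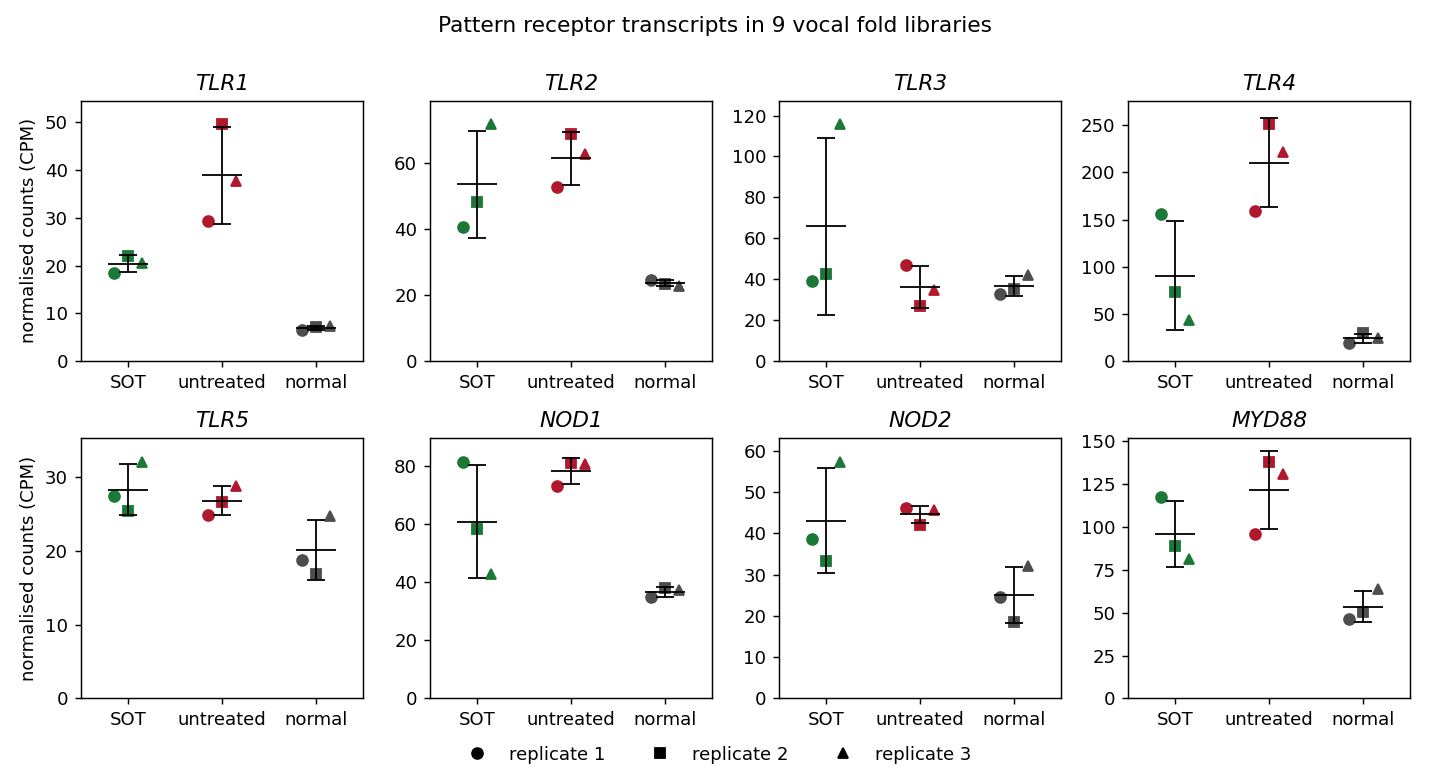
Normalised counts (CPM, linear axis from 0) of the 8 receptor genes in SOT, untreated and normal folds, with 1 symbol per library, the mean as a horizontal line and the SD as an error bar (n = 3). TLR1 separates all 3 groups, TLR4 ranges from 43.8 to 156 CPM among the SOT libraries, and TLR3 is high in SOT replicate 3 alone.

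TLR5, the receptor for flagellin, had 27.4, 25.4 and 32.1 CPM in SOT folds, 24.9, 26.6 and 28.8 CPM in untreated folds, and 18.8, 16.9 and 24.7 CPM in normal folds. Every injured library lay above every normal one, but untreated replicate 1 and normal replicate 3 differed by little. The log2 fold change against normal folds was 0.49 in SOT folds (adjusted p = 0.0737) and 0.41 in untreated folds (adjusted p = 0.0858). Without normal replicate 3 both passed (0.68, adjusted p = 0.0238, in SOT folds and 0.58, adjusted p = 0.0209, in untreated folds). The SOT value also passed with all libraries by DESeq2 (0.0304) and by limma on log2 FPKM (0.0446 and 0.047). SOT folds differed from untreated folds by 0.08 (95% interval -0.30 to 0.45).

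TLR3, an endosomal receptor for double-stranded RNA, had 39.1, 42.7 and 116 CPM in SOT folds, 47.2, 27.0 and 34.7 CPM in untreated folds, and 32.6, 35.5 and 42.1 CPM in normal folds. All 3 groups overlapped, and SOT replicate 3 stood apart from the other 8 libraries. TLR3 was not called in untreated folds against normal folds (log2 fold change -0.02, 95% interval -0.95 to 0.92). SOT folds had 0.86 relative to untreated folds (adjusted p = 0.432) and 0.84 relative to normal folds (adjusted p = 0.188). Without SOT replicate 3 the value against untreated folds was 0.21 (adjusted p = 0.809).

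Some other genes of nucleic acid sensing were also high in SOT replicate 3, and others were not. IRF7, a transcription factor of the interferon response, had 110, 113 and 555 CPM in SOT folds, 130, 104 and 119 CPM in untreated folds, and 36.9, 51.8 and 65.0 CPM in normal folds. IFIH1, a cytosolic sensor of double-stranded RNA, had 70.0, 67.3 and 185 CPM in SOT folds, against 92.8, 86.7 and 90.6 CPM in untreated folds. The related sensors DDX58 (226, 165 and 371 CPM in SOT folds) and DHX58 (61.1, 57.0 and 114 CPM) were also highest in that library. In untreated folds DDX58 had 282, 251 and 267 CPM and DHX58 had 92.3, 84.1 and 88.5 CPM. These genes were picked for their values in that library. Among genes that were not high there, TLR9, a receptor for DNA, had 57.1, 52.3 and 54.6 CPM in SOT folds. UNC93B1, which serves the endosomal receptors, had 57.2, 61.7 and 50.2 CPM, and the transcription factor IRF3 had 19.4, 20.7 and 18.4 CPM. Summed T and NK cell markers were 166 TPM in SOT replicate 3, and between 27.0 and 42.0 TPM in the other 8 libraries. Summed dendritic cell markers were 49.9 TPM in SOT replicate 3, and between 20.8 and 43.3 TPM in the other libraries. On that list XCR1 and FLT3 were highest in SOT replicate 3 (9.42 and 18.1 CPM), whereas CD1C was lowest of the SOT libraries there (4.52 CPM). The part of either cell content in the TLR3 value was not tested.

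NOD1 senses a peptidoglycan fragment typical of Gram-negative bacteria. It had 81.6, 58.4 and 42.7 CPM in SOT folds, 73.0, 81.2 and 80.6 CPM in untreated folds, and 34.8, 38.2 and 37.3 CPM in normal folds. Its order among the SOT libraries was that of TLR4, highest in replicate 1 and lowest in replicate 3. NOD1 rose in untreated folds (1.09 on the log2 scale, SE 0.21, adjusted p = 0.00589). SOT folds had 0.73 relative to normal folds (adjusted p = 0.0444). It passed in 1 of the 9 fits that left out a library, the one without SOT replicate 3, and its adjusted p reached 0.129 without normal replicate 1. Relative to untreated folds the value in SOT folds was -0.36 (95% interval -0.83 to 0.10).

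NOD2 senses muramyl dipeptide, a fragment common to most bacteria. It had 38.6, 33.2 and 57.4 CPM in SOT folds, 46.0, 42.1 and 45.6 CPM in untreated folds, and 24.5, 18.6 and 32.1 CPM in normal folds. Here SOT replicate 3 was the highest library, as for TLR2, TLR3 and TLR5, and the injured libraries all lay above the normal ones. In untreated folds the log2 fold change was 0.83 (SE 0.24, adjusted p = 0.0319), but it did not pass when any untreated library, or normal replicate 1 or 2, was left out (adjusted p up to 0.0908). SOT folds had 0.78 relative to normal folds (adjusted p = 0.0609), which passed without SOT replicate 2 (0.049) or normal replicate 3 (0.0323), with DESeq2 (0.0174) and with limma on log2 FPKM (0.0419 and 0.0445). SOT folds differed from untreated folds by -0.05 (95% interval -0.60 to 0.50).

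MYD88 had 118, 88.8 and 81.0 CPM in SOT folds, 95.7, 138 and 131 CPM in untreated folds, and 46.3, 50.2 and 63.5 CPM in normal folds. Every injured library lay above every normal library, and the injured groups overlapped. MYD88 rose in untreated folds (1.19 on the log2 scale, SE 0.20, adjusted p = 0.00383). SOT folds had 0.84 relative to normal folds (adjusted p = 0.026), which did not pass without SOT replicate 1 or 2 (adjusted p = 0.0551 and 0.0508) or normal replicate 1 or 2 (0.0915 and 0.084). Against untreated folds the value in SOT folds was -0.34 (95% interval -0.80 to 0.11).

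**Figure D2:**
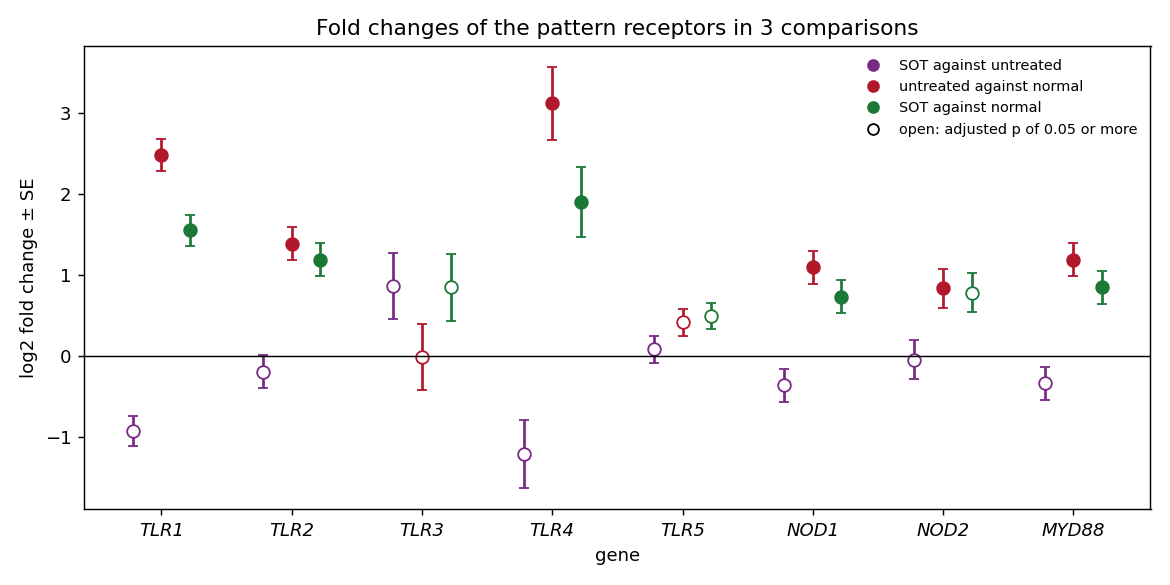
Log2 fold change ± SE (edgeR, n = 3 per group) of each receptor gene in SOT against untreated, untreated against normal and SOT against normal folds. Filled points have an adjusted p under 0.05. The values against normal folds run from -0.02 for TLR3 to 3.11 for TLR4 in untreated folds, and all SOT against untreated points are open.

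Counted together, 6 of the 8 receptor genes rose in untreated folds against normal folds and none fell, while 17.7% of all tested genes rose and 15.1% fell. Groups did not overlap for 7 of the 8, all higher in untreated folds, against 28.0% of all genes. The median log2 fold change was 1.14 over the receptors and -0.02 over all genes. In SOT folds against normal folds, 5 rose and none fell (9.01% of all genes rose and 7.67% fell), groups did not overlap for 7 (17.8% of all genes), and the median was 0.84, against 0.02 over all genes. The 5 became 3 without SOT replicate 1 and 2 without normal replicate 1 or 2. Between SOT and untreated folds, 1 of the 8 passed by DESeq2, beside 682 of all 17344 genes. None of the 8 passed by edgeR, where 0.0115% of all genes passed. These were 2 genes, both lower in SOT folds, described in the table as linker for activation of T-cells family member 2 and CMRF35-like molecule 6. At an unadjusted p under 0.05 there were 2 receptors, TLR1 and TLR4, against 12.6% of all genes. Both were lower in SOT folds with no overlap, as were 12.4% of all genes. The comparisons share their libraries in pairs and are not independent of each other.

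**Figure D3:**
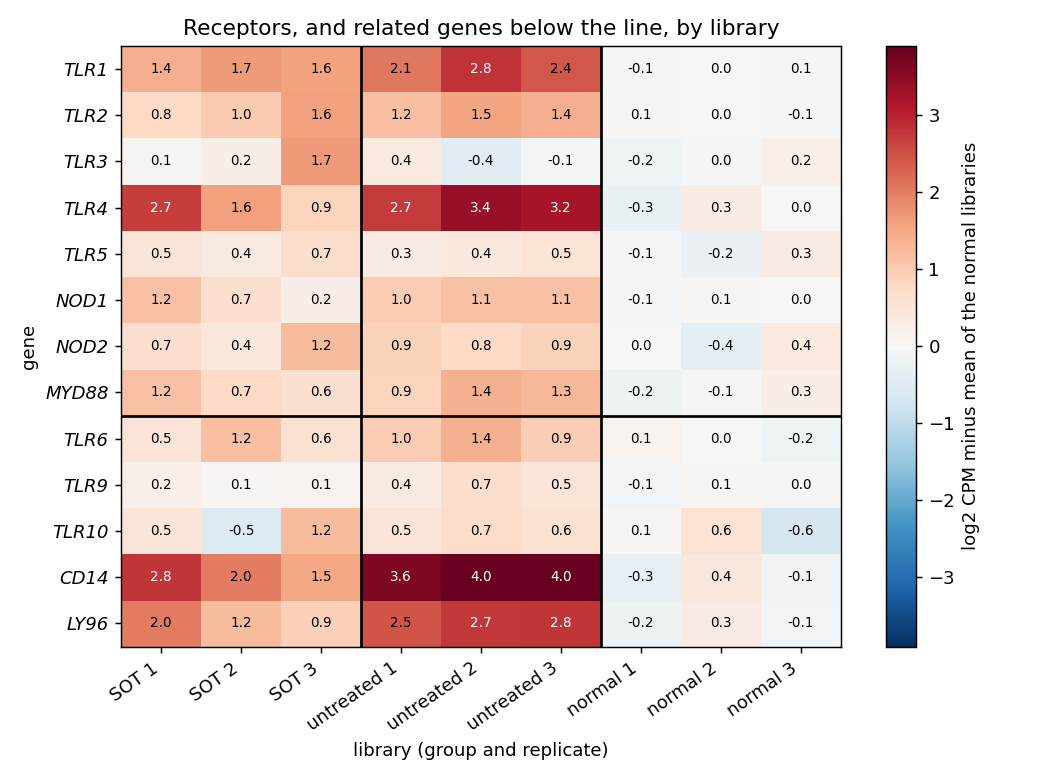
Log2 CPM of each gene in each of the 9 libraries, minus the mean of the normal libraries (colour and printed value), with the receptors above the horizontal line and relatives or partners below it. SOT replicate 1 carries the SOT group's highest values of TLR4, NOD1, MYD88, CD14 and LY96, and SOT replicate 3 its highest values of TLR2, TLR3, TLR5 and NOD2.

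The level of one receptor can be set against another only per transcript length, for which TPM rescaled from the deposited FPKM was used. MYD88 had the highest mean level in every group, with 71.2 ± 8.84 TPM in SOT folds, 82.1 ± 15.4 TPM in untreated folds and 36.6 ± 7.68 TPM in normal folds. TLR4 ranked 2nd of the 8 in SOT folds (37.6 ± 21.2 TPM) and in untreated folds (81.1 ± 18.0 TPM) and 7th in normal folds (9.50 ± 2.17 TPM). In untreated folds the library ranges of MYD88 and TLR4 overlapped, and those of TLR4 and the next gene, TLR2 (36.2 ± 4.78 TPM), did not. TLR3 ranked 4th in SOT folds (30.8 ± 21.3 TPM), 7th in untreated folds (between 11.1 and 19.5 TPM) and 2nd in normal folds (15.4 ± 2.68 TPM). TLR1 was the lowest in SOT folds (13.1 ± 2.06 TPM) and in normal folds (4.07 ± 0.388 TPM), but not in untreated folds (22.5 ± 5.82 TPM), where TLR5 was (14.4 ± 1.13 TPM). Between MYD88 and TLR1, the normal folds held TLR3, TLR2, NOD2, NOD1, TLR5 and TLR4 in that order, each overlapping with its neighbour.

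Each receptor was also set beside 13 macrophage markers, as its log2 CPM minus the mean log2 CPM of the markers. All 13 markers counted equally, including MARCO and C1QC, whose untreated and normal libraries overlapped. Neutrophil markers rose too, and whether the 13 markers are specific to macrophages was not tested. Their mean therefore cannot be read as macrophage content alone. For TLR4 the difference from the marker mean was 0.79 ± 0.53 in SOT folds, 1.16 ± 0.31 in untreated folds and 0.69 ± 0.09 in normal folds. For TLR1 it was -1.16 ± 0.51 in SOT folds, -1.28 ± 0.34 in untreated folds and -1.09 ± 0.15 in normal folds (SD, n = 3 each). The TLR1 difference between untreated and normal folds was -0.19 (two-sided exact permutation p = 0.4), or -0.51 with CD68 as the only marker. TLR4 shifted by 0.48 relative to the markers in the same comparison (exact permutation p = 0.1), or by 0.16 with CD68 alone. The other 6 receptors were lower relative to the markers in untreated folds than in normal folds, from -1.26 for TLR2 to -2.68 for TLR3 (exact permutation p = 0.1 each). Set against untreated folds, SOT folds had higher values relative to the markers for NOD1 (0.61), MYD88 (0.67), NOD2 (0.93), TLR5 (1.09) and TLR3 (1.73). The exact permutation p was 0.1 for each of these. TLR2 had 0.79, TLR1 0.12 and TLR4 -0.37 (exact permutation p = 0.3, 0.7 and 0.4). With 3 against 3 libraries 0.1 is the smallest p that this test can give, and after adjustment over the 24 values none was under 0.16.

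**Figure D4:**
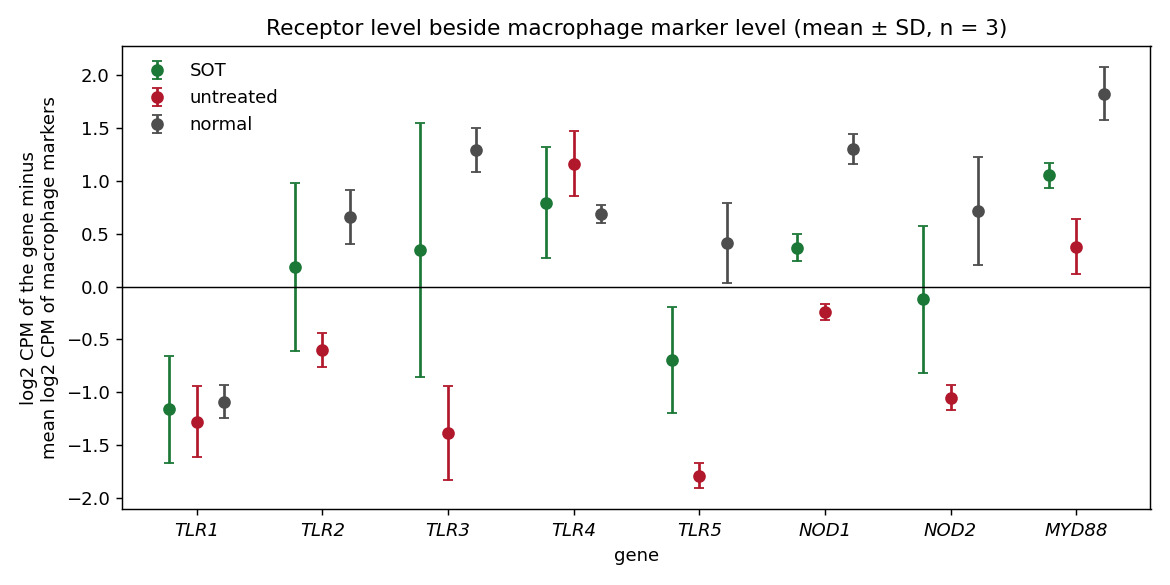
Log2 CPM of each receptor minus the mean log2 CPM of 13 macrophage markers in SOT, untreated and normal folds (mean ± SD, n = 3). The means of TLR1 lie between -1.28 and -1.09, the mean of TLR4 is highest in untreated folds, and the means of the other genes are lowest there.

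Among the other Toll-like receptors, TLR9, an endosomal receptor for bacterial DNA, had 54.7 ± 2.39 CPM in SOT folds, 71.2 ± 7.80 CPM in untreated folds and 49.6 ± 2.96 CPM in normal folds. It rose in untreated folds by 0.52 on the log2 scale (adjusted p = 0.00767). TLR10 was not called, with 5.69 ± 3.24 CPM in SOT folds, 5.83 ± 0.412 CPM in untreated folds and 4.05 ± 1.65 CPM in normal folds. So 2 of the 3 measured relatives rose in untreated folds, against 17.7% of all genes. A further 3 rows, looked up after the values were seen, are described in the table as toll-like receptors 11, 12 and 13. In untreated against normal folds the receptor 11 row was not called (log2 fold change -0.35, adjusted p = 0.759). The receptor 12 row rose by 1.07 (adjusted p = 0.0339), which did not pass without untreated replicate 2 or 3 or any normal library (up to 0.124). Between SOT and untreated folds these 2 rows had 1.52 and 0.10 (adjusted p = 0.467 and 0.926). The receptor 13 row (chromosome X, 69781335 to 69804673), a sensor of bacterial ribosomal RNA in mice, had 5.48, 4.73 and 4.59 CPM in SOT folds, 10.9, 15.8 and 12.4 CPM in untreated folds, and 0.899, 0.946 and 0.939 CPM in normal folds. The groups did not overlap, and the untreated value was 14.0-fold higher than the normal one (adjusted p = 0.000182). Between SOT and untreated folds its log2 fold change was -1.40 (adjusted p = 0.0749). It passed without SOT replicate 1 (0.0223) and, with all libraries, by DESeq2 (1.18e-08) and by limma on log2(FPKM + 1) (0.0486).

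Of 8 tested co-receptors and chaperones, 6 rose in untreated folds against normal folds (17.7% of all genes), and 5 rose in SOT folds (9.01% of all genes). Besides CD14 and LY96 they include LY86, which pairs with CD180, at 9.98, 9.87 and 10.3 CPM in SOT folds, 19.4, 21.1 and 21.2 CPM in untreated folds, and 2.95, 3.87 and 2.99 CPM in normal folds. UNC93B1, which carries the endosomal receptors out of the endoplasmic reticulum, had 56.4 ± 5.82 CPM in SOT folds, 79.8 ± 11.4 CPM in untreated folds and 29.2 ± 2.04 CPM in normal folds. Both rose in untreated folds (log2 fold change 2.65 and 1.45, adjusted p = 0.000187 and 0.000497). CD180 itself was not called (log2 fold change 0.08 in untreated folds). The list median in untreated folds was 1.19.

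Of 19 tested kinases and adaptors downstream, 6 rose in untreated folds, against 17.7% of all genes. The other 13 did not pass, and the list median was 0.33. TICAM2, the bridging adaptor of TLR4, had 5.85 ± 0.805 CPM in SOT folds, 11.5 ± 0.950 CPM in untreated folds and 3.96 ± 0.341 CPM in normal folds. IRAK2 had 65.9 ± 37.1 CPM in SOT folds, 115 ± 31.5 CPM in untreated folds and 28.6 ± 6.19 CPM in normal folds. Both rose in untreated folds (log2 fold change 1.53 and 2.01, adjusted p = 0.000806 and 0.0069). IKBKE and RIPK1 rose by 1.04 and 0.88. RIPK2, the kinase of the NOD receptors, had 0.29 (adjusted p = 0.0414), which did not pass when any library of untreated or normal folds, or SOT replicate 2, was left out (adjusted p up to 0.158), nor by limma on log2 FPKM (0.0806 and 0.0886) or voom (0.0708). IRAK4, which binds MYD88, and TRAF6, a ubiquitin ligase further downstream, had 0.38 and -0.14 and did not pass.

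Of 9 transcription factors, 5 rose in untreated folds, against 17.7% of all genes. NFKB2 had 209, 91.4 and 82.9 CPM in SOT folds, 220, 170.0 and 204 CPM in untreated folds, and 39.3, 65.0 and 45.7 CPM in normal folds. Its partner RELB had 21.8 ± 7.09 CPM in SOT folds, 29.8 ± 2.54 CPM in untreated folds and 8.10 ± 0.674 CPM in normal folds. They rose by 1.99 and 1.88 on the log2 scale in untreated folds. REL rose by 1.06. IRF5, a factor activated through MYD88, had 1.11 (adjusted p = 0.0261), which did not pass without untreated replicate 2 or 3 or normal replicate 1 or 2 (adjusted p up to 0.0879).

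Inhibitors of the pathway rose as well, 8 of 15 in untreated folds (17.7% of all genes), with a list median of 0.60. IRAK3, an inactive kinase that restrains MYD88 signalling, had 25.9 ± 5.37 CPM in SOT folds, 29.4 ± 2.22 CPM in untreated folds and 9.69 ± 1.38 CPM in normal folds. It rose in both injured groups (log2 fold change 1.42 in SOT folds and 1.60 in untreated folds, adjusted p = 0.00467 and 0.000921). NFKBIA and TNFAIP3, feedback inhibitors of NF-kappaB, followed the SOT order of TLR4. NFKBIA had 595, 146 and 102 CPM in SOT folds and 633, 341 and 518 CPM in untreated folds, and TNFAIP3 had 430, 64.1 and 54.2 CPM in SOT folds and 393, 185 and 297 CPM in untreated folds. Against normal folds they had 2.57 and 2.91 in untreated folds (adjusted p = 0.0156 and 0.0228). NFKBIA did not pass without normal replicate 1 (0.0591). TNFAIP3 did not pass when any normal library, or untreated replicate 1 or 3, was left out (up to 0.0783). The same 5 fits ended the call of IL1RL1, the receptor for IL33, at 1.79 (adjusted p = 0.0264, up to 0.0841). The count of 8 became 5 without untreated replicate 1 or 3 and 4 without normal replicate 1.

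Other innate sensors showed 9 of 12 higher and 1 lower in untreated folds, with a median of 2.01. Of all genes 17.7% rose and 15.1% fell. CLEC4E and CLEC7A, lectin receptors of myeloid cells, rose by 5.63 and 4.07 on the log2 scale (adjusted p = 0.00181 and 0.000236). The 1 that fell was MAVS, the mitochondrial adaptor of RNA sensors, with -0.78. PGLYRP1, a peptidoglycan-binding protein of neutrophil granules, had 262, 23.9 and 13.3 CPM in SOT folds, 168, 579 and 439 CPM in untreated folds, and 1.34, 12.1 and 10.5 CPM in normal folds. It rose in untreated folds by 5.63 (adjusted p = 0.0162). PGLYRP2 had 5.19 in log2 fold change (adjusted p = 0.037), which did not pass when any normal library, or untreated replicate 1 or 3, was left out (up to 0.0967), nor by voom (0.163).

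Of 13 proteins that have been described as ligands made by damaged tissue, 7 rose and 1 fell in untreated folds. The shares of all genes were 17.7% and 15.1%. The matrix glycoprotein TNC had 825 ± 486 CPM in SOT folds, 1586 ± 505 CPM in untreated folds and 61.1 ± 16.6 CPM in normal folds, and rose in both injured groups (3.76 and 4.70 on the log2 scale, adjusted p = 0.00617 and 0.00106). S100A9 and S100A8, which are also on the neutrophil list, rose by 3.35 and 3.29 in untreated folds, and SAA3 rose by 4.13. The 1 that fell, DCN, did not pass without untreated replicate 1, 2 or 3 or normal replicate 1 or 2.

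Of 18 target genes of the pathway, 14 rose and 1 fell in untreated folds, with a median of 2.66. Among all genes 17.7% rose and 15.1% fell. IL1B had 1392, 83.1 and 25.0 CPM in SOT folds, 1255, 1112 and 1214 CPM in untreated folds, and 6.06, 25.4 and 25.9 CPM in normal folds. SOT replicate 1 was at the untreated level, and SOT replicate 3 at the normal level, the order also seen for TLR4. CXCL8 and CCL4 showed the same order. CXCL8 had 1981, 132 and 33.4 CPM in SOT folds, and CCL4 had 303, 16.5 and 6.89 CPM. IL6 rose in untreated folds by 5.44 on the log2 scale (adjusted p = 0.0106, and 0.0586 by voom). In untreated folds IL1B, CXCL8 and CCL4 rose by 5.96, 5.71 and 5.66 (adjusted p = 0.0173, 0.0203 and 0.0194), but did not pass without normal replicate 1 (0.0603, 0.0694 and 0.0691) or 2 (0.055, 0.0662 and 0.0617). CXCL8 and CCL4 did not pass without normal replicate 3 either (0.0507 and 0.0538), nor CXCL8 without untreated replicate 3 (0.0501), nor CCL4 by voom (0.0637). The count of 14 became 8 without normal replicate 1 or 2. The 1 that fell was NOS2, the inducible nitric oxide synthase, with -2.20 (adjusted p = 0.00997).

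In SOT folds against normal folds, where 9.01% of all genes rose, the numbers of these lists that rose changed with single libraries. They were 2 of 19 kinases and adaptors (1 without SOT replicate 1 or 2 or untreated replicate 3, 0 without normal replicate 1 or 2, 4 without SOT replicate 3) and 4 of 9 transcription factors (2 without untreated replicate 1 or 2, 1 without untreated replicate 3 or normal replicate 1 or 2). Inhibitors numbered 4 of 15 (2 without normal replicate 1), and other sensors 7 of 12 with MAVS lower (3 without normal replicate 1, 4 without normal replicate 2). Ligands numbered 5 of 13 with DCN lower (3 without SOT replicate 1 or untreated replicate 2, 2 without untreated replicate 3 or normal replicate 1 or 2). Target genes numbered 10 of 18 (5 without SOT replicate 1 or untreated replicate 3, 1 without normal replicate 1, 2 without normal replicate 2 or 3).

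Between SOT and untreated folds, edgeR with all libraries called none of the 97 tested genes of these 7 lists and the 3 relatives. At an unadjusted p under 0.05 there were 20, of which 18 were lower in SOT folds, against 12.6% of all genes in either direction. The split into higher and lower of that share, and of the counts over all genes that follow, is not given here. A lean of the lists to lower values beyond that of all genes can therefore not be read from these counts. DESeq2 called 9 of the 96 for which it gave an adjusted p, all lower in SOT folds. Limma on log2(FPKM + 1) called 1 and voom called 1, and limma on log2(FPKM + 0.1) called none. Over all 17344 genes DESeq2 called 682, limma on log2(FPKM + 1) called 27, voom called 23 and limma on log2(FPKM + 0.1) called none. LY86 was the gene called by voom (0.0454) and by limma on log2(FPKM + 1) (0.0486), and DESeq2 called it too (9.46e-10). List medians on the log2 scale were -0.86 for co-receptors, -0.08 for kinases and adaptors, -0.21 for transcription factors, -0.06 for inhibitors, -0.19 for other sensors, -0.55 for ligands and -0.51 for target genes, against 0.01 over all genes. Macrophage markers had a median of -1.11 and neutrophil markers of -1.57 in the same comparison. Without SOT replicate 1, 397 of all genes passed in place of 2, with 13 of 98 tested genes of the lists and relatives included. Among those were TLR4, the co-receptors CD14, LY96 and LY86, the adaptor TICAM2, the inhibitors NFKBIA and TNFAIP3, the sensors CLEC4E, CLEC7A and NLRP3, the ligand S100A8 and the target genes IL1B, TNF and CCL4, all lower in SOT folds. Also lower were 8 macrophage markers and 4 neutrophil markers, of which S100A8 is 1. When any other single library was left out, no receptor, list gene, macrophage marker or neutrophil marker passed between SOT and untreated folds.

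The genes with the profile most like the mean of the 8 receptors over the 9 libraries were SP100, SKAP2, RNF114, MIER1 and GAB3, with Pearson r between 0.986 and 0.992 on log2 CPM. This is a description, since the libraries fall into groups and r includes the difference between them. SP100, a nuclear body protein, had 59.8 ± 11.1 CPM in SOT folds, 77.8 ± 5.20 CPM in untreated folds and 23.2 ± 3.12 CPM in normal folds. Of the receptors themselves TLR2 (0.945) and TLR1 (0.937) were closest to their own mean, which each helped to form, and TLR3 (0.270) was farthest.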

How the data were processed

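Members and gene lists were chosen with earlier results of these data known. The submitters' processing notes name cutadapt 1.9, HISAT2 2.0.4, StringTie 1.3.4d, edgeR and the build OryCun2.0; for strand use and shared reads, the handling is not given in the sources used here. Per the file headers, the deposited table holds a read count and an FPKM value for every gene and library. Where the table gave a locus number in place of a symbol (5734 rows), a RefSeq symbol was found for 530 (assembly mOryCun1.1, names only). Chromosome numbers follow the order of the chromosome records. The counts were fitted with edgeR 4.0.16 in R 4.3.3, using filterByExpr (17344 genes kept), TMM scaling, 1 mean per group over all 9 libraries, quasi-likelihood tests and Benjamini-Hochberg adjustment over the genes tested. SE is the log2 fold change divided by the root of F, and 95% intervals use the t distribution. The procedure was tested on simulated data. TPM was rescaled from the deposited FPKM. The rule for named genes took all receptors, up to 4 genes of each list with the largest called change in untreated against normal folds, and the 5 genes most like the receptors' mean profile; other genes were picked by role or after their values were seen. Alternatives were DESeq2 1.42.0, limma 3.58.1 (on log2(FPKM + 0.1), on log2(FPKM + 1), and voom), DESeq2 size factors, no filter, pairwise fits, a replicate block and fits without 1 library. Intervals cover the spread between these libraries only.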

Additional observations from a re-analysis of the deposited data

How the results depend on the processing

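Of 136 values of single receptors under alternatives in each comparison, 130 kept direction and side of the threshold in SOT against untreated folds, 126 in untreated against normal folds and 105 in SOT against normal folds. The NOD2 value in SOT against untreated folds turned positive with limma on log2(FPKM + 0.1) and log2(FPKM + 1) (0.0512 and 0.0498), and ranged from -0.27 to 0.12 without 1 library; TLR3 in untreated against normal folds ranged from -0.25 to 0.16. The cause was not tested. Genes called in SOT against untreated folds (2) were 0 with the replicate block, with only the 2 groups or with limma on log2(FPKM + 0.1), 27 on log2(FPKM + 1), 23 with voom, 682 with DESeq2 and 0 to 397 without 1 library; receptors called were 1 with DESeq2 and 0 to 1 without 1 library. Genes called in untreated against normal folds (5692) ranged from 3145 to 6026 without 1 library. In SOT against normal folds (2894) they were 1578 with only the 2 groups, 4819 with DESeq2 and 1135 to 3222 without 1 library; receptors called (5) were 3 with only the 2 groups and 2 to 5 without 1 library. With CD68 alone as the macrophage measure, the difference in untreated against normal folds was -0.51 for TLR1, -1.57 for TLR2, 0.16 for TLR4, -2.52 for TLR5, -1.86 for NOD1 and -1.77 for MYD88; in SOT against normal folds -0.51 for TLR1, -0.33 for TLR4, -1.37 for NOD1 and -1.21 for MYD88; and in SOT against untreated folds 0.49 for NOD1. The order of receptor levels by CPM in place of TPM had a Spearman rho with the order given of 0.88 in SOT, 0.93 in untreated and 0.71 in normal folds. Same-numbered libraries of different groups did not deviate together throughout (r between -0.05 and 0.27). Some libraries, but not all, correlated best with their own number. With 3 libraries per group this check cannot tell whether same-numbered libraries share an animal or a batch. With the replicate block, 7 receptors were called in untreated against normal folds, TLR5 added (adjusted p = 0.0374), and 5 in SOT against normal folds, TLR5 (0.0404) and NOD2 (0.027) in place of NOD1 (0.075) and MYD88 (0.0501). In untreated against normal folds the block also ended the calls of IL1RL1 (0.0546) and PGLYRP2 (0.075).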
